A study of Rattus norvegicus with 21 samples.

Results

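The transcripts described here are Hbb, Alas2, Ahsp and Slc4a1, a set of erythroid genes measured in rat liver. They were chosen by exact match of the platform's gene symbol, which gave 4 genes with 5 probe sets, of 14217 genes with 20826 probe sets that carry 1 symbol. Hbb, Alas2 and Ahsp had 1 probe set each, and Slc4a1 had 2, 1387656_at and 1369634_at, which are reported separately because they differed. All 5 probe sets passed the filter on low signal in both studies when all arrays were used. Ahsp passed it only narrowly in the DAM study, as described with its values.

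Livers of 21 male rats were profiled with 1-colour short oligonucleotide arrays, with 1 array per animal and 3 animals per dose group. In the PBO study, 12 Sprague-Dawley rats received piperonyl butoxide, an insecticide synergist, by mouth in 0.5% methyl cellulose for 7 days at 500, 1000 or 1500 mg/kg, or the vehicle alone (0 mg/kg), and the livers were stored in RNAlater. In the DAM study, 9 Fischer344 rats ate a diet with dammar resin, a plant resin, for 28 days at 800 mg/kg (2% of the diet) or 2000 mg/kg (5%), or the basal diet (0 mg/kg), and the livers were frozen in liquid nitrogen. Ages, blood counts and whether the livers were perfused are not given in the sources used here. Between the studies, compound, strain, route, duration and storage cannot be told apart.

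Red blood cells carry haemoglobin, which is built from alpha and beta globin chains around haem. Young red cells, the reticulocytes, keep globin and haem synthesis mRNA for a short time after they lose their nucleus, and these mRNAs are made in the bone marrow, and in rodents also in the spleen. The liver forms red cells in the fetus and is rich in blood throughout life, so a piece of liver holds red cell mRNA beside that of its own cells. In such bulk samples, fewer cells of a type and less RNA per cell cannot be told apart.

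The tissue label was checked against 9 hepatocyte genes on the array, whose summed signal lay between 248580 and 402418 in all 21 livers. Albumin (Alb) had a log2 difference of 0.06 ± 0.15 at 1500 mg/kg PBO (adjusted p = 0.839) and of 0.28 ± 0.12 at 2000 mg/kg DAM (adjusted p = 0.167), each against its own controls. Signals are linear and scaled by the authors to a common level, with a trimmed mean of 500.2 to 500.3 on every array. The median signal was 94.3 to 114 in the PBO study and 76.0 to 86.2 in the DAM study. Differences are log2(signal + 16) with the standard error of a limma fit over all arrays of a study, and p-values were adjusted over 18625 probe sets and called under 0.05. The added 16 makes the differences of low signals look smaller, which moves the sizes given for Ahsp and Slc4a1: at 1500 mg/kg PBO, Ahsp was -1.09 and the Slc4a1 probe set 1387656_at -1.004 with 64 added, and -2.02 and -2.32 with 1 added.

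Promoter sequence was matched by gene identifier in RefSeq (build GRCr8) for 2 of the 4 members, Hbb and Alas2, the only members with a sequence in the source used. Whether these sequences bear on the liver signals was not tested. Each run is the 250 bases before the annotated start of the gene, on the gene's strand.
Hbb, chr1:167663722-167663971, minus strand: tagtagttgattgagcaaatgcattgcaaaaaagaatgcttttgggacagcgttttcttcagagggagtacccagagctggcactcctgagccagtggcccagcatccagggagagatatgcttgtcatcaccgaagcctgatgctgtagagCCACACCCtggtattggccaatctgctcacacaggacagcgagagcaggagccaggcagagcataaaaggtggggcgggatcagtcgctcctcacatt
Alas2, chrX:22895200-22895449, plus strand: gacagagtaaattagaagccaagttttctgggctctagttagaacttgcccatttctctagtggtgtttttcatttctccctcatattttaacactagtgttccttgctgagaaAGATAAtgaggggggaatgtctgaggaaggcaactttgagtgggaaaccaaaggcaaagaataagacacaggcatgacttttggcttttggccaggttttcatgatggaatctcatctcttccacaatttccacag
In Hbb the capitals mark a match to the motif of the erythroid factor KLF1, written CCNCNCCC, at positions -98 to -91 from the start. In Alas2 they mark a match to the motif of the GATA factors, AGATAA, at -136 to -131. Both strands were searched for CCNCNCCC, for CACCC, for the GATA motifs AGATAA or AGATAG or TGATAA or TGATAG, and for TATAAA. The CACCC motif overlaps the KLF1 match in Hbb. Of 33469 rat promoters of this length, 42.8% held the KLF1 motif, 49.2% CACCC, 27.0% a GATA motif and 12.9% TATAAA, so the matches are common and are given as a description.

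At the highest PBO dose, 4 of the 5 probe sets fell against the vehicle controls, where 9.26% of all probe sets fell: Hbb, Alas2, Ahsp and the Slc4a1 probe set 1387656_at. Their mean signals were 32.5%, 31.9%, 24.1% and 27.7% of the control means. The second Slc4a1 probe set, 1369634_at, stood at 65.9% of its control mean and did not pass the test. The median log2 difference of the 5 was -1.66, beside -0.08 over all probe sets tested. No probe set of the 4 genes passed the test at either DAM dose, where 3.79% of all probe sets were called at 800 mg/kg and 12.3% at 2000 mg/kg.

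**Figure D1:**
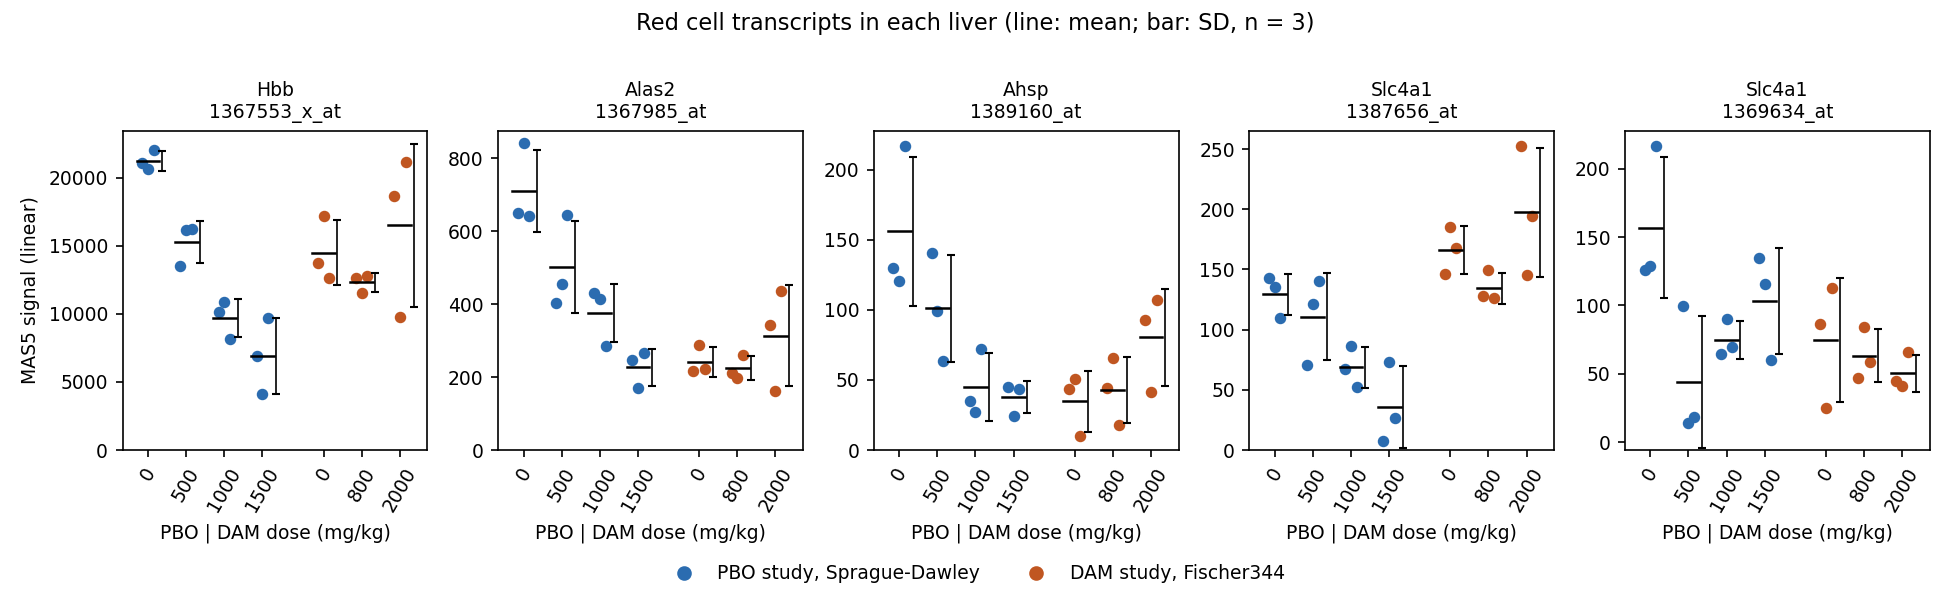
Signal of each of the 5 probe sets (vertical axis, linear array signal) in the 7 dose groups (horizontal axis, mg/kg) of the PBO and DAM studies. Points are single animals, 3 per group, and bars give the mean and SD. Hbb falls in steps over the PBO doses, to 6913 at 1500 mg/kg against 21253 in controls, whereas the DAM groups overlap.

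Hbb encodes the adult beta globin chain. The suffix of its probe set, 1367553_x_at, marks probes that can also bind related transcripts, so other beta globins may add to this signal. In the PBO study its signal was 21080, 20620 and 22059 in the 3 controls, 13528, 16161 and 16240 at 500 mg/kg, 10146, 10853 and 8167 at 1000 mg/kg, and 6930, 4108 and 9702 at 1500 mg/kg. Every dosed animal lay below every control, and every animal at 1500 mg/kg lay below all those at 500 mg/kg. At 1500 mg/kg the mean was 6913 ± 2797 against 21253 ± 735 in controls (SD, n = 3 each), a log2 difference of -1.70 ± 0.23 (limma, adjusted p = 0.000374).

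Hbb also fell at 1000 mg/kg, by 1.14 ± 0.23 on the log2 scale (adjusted p = 0.0190), the only probe set of the 5 to do so, where 1.23% of all probe sets fell. At 500 mg/kg its log2 difference was -0.48 ± 0.23 (adjusted p = 0.534). The call at 1000 mg/kg was lost without any 1 of the 3 controls or without replicate 1 or 3 at that dose, with adjusted p between 0.0636 and 0.0883. In the DAM study Hbb had 13733, 17169 and 12621 in controls, 12629, 11507 and 12799 at 800 mg/kg, and 18629, 9771 and 21185 at 2000 mg/kg. The DAM groups overlapped, and replicate 2 at 2000 mg/kg had the lowest Hbb signal of the 9 livers. Without that animal, Hbb was 0.47 higher at 2000 mg/kg than in controls (adjusted p = 0.0353). Without replicate 3 of that dose instead, the sign turned, to -0.09 (adjusted p = 0.833). With all 9 livers its log2 difference was 0.12 ± 0.22 (adjusted p = 0.769).

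Alas2 encodes the erythroid form of the first enzyme of haem synthesis. Its signal was 649.3, 841.0 and 642.4 in PBO-study controls, 403.8, 456.3 and 645.3 at 500 mg/kg, 430.3, 414.8 and 285.4 at 1000 mg/kg, and 247.6, 168.8 and 264.8 at 1500 mg/kg. All animals at 1000 and 1500 mg/kg lay below all controls, and 1 animal at 500 mg/kg lay within the control range. The mean was 227 ± 51.2 at 1500 mg/kg and 711 ± 113 in controls (SD, n = 3 each), a log2 difference of -1.59 ± 0.23 (limma, adjusted p = 0.000549). At 1000 mg/kg the difference of -0.90 ± 0.23 missed the threshold (adjusted p = 0.0539). It passed without replicate 3 at 1500 mg/kg in the fit (adjusted p = 0.0222), the array that deviated most from its group mean.

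In the DAM study Alas2 had 215.4, 288.0 and 221.3 in controls, 212.5, 198.5 and 260.7 at 800 mg/kg, and 343.7, 162.5 and 434.8 at 2000 mg/kg. The 2000 mg/kg group held both the lowest and the highest Alas2 signal of this study. Its log2 difference from controls was 0.26 ± 0.27 (limma, adjusted p = 0.586).

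Ahsp encodes the chaperone that binds free alpha globin and keeps it from precipitating. Its signals were low: 130.3, 120.7 and 217.4 in PBO-study controls, 140.5, 99.2 and 63.6 at 500 mg/kg, 35.2, 27.5 and 72.4 at 1000 mg/kg, and 44.8, 24.6 and 43.6 at 1500 mg/kg. The 6 animals at 1000 and 1500 mg/kg were all below the 3 controls. At 1500 mg/kg the mean was 37.7 ± 11.3, against 156 ± 53.3 in controls (SD, n = 3 each), a log2 difference of -1.66 ± 0.38 (limma, adjusted p = 0.0103). Without replicate 3 of the controls the difference was -1.42 and the call was lost (adjusted p = 0.0543). At 1000 mg/kg it was -1.52 ± 0.38 (adjusted p = 0.0515), and it passed without replicate 3 at 1000 mg/kg (adjusted p = 0.0496) or without replicate 3 at 1500 mg/kg (0.0314).

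The DAM-study signals of Ahsp were 43.7, 50.6 and 9.74 in controls, 44.6, 65.8 and 18.1 at 800 mg/kg, and 92.7, 41.2 and 107.3 at 2000 mg/kg. Of the 3 animals at 2000 mg/kg, 2 exceeded every control and the third lay within the control range. The log2 difference of 0.97 ± 0.44 did not pass (limma, adjusted p = 0.183), with an unadjusted 95% interval of 0.01 to 1.93. All 3 control signals lay below the median signals of the DAM arrays, 76.0 to 86.2. Of 6 fits that each left out 1 control or 2000 mg/kg array, Ahsp passed the filter in 4. It passed in all 6 that left out 1 control or 800 mg/kg array. Ahsp thus entered this test partly through its signals at 2000 mg/kg, so the interval is no separate sign of a rise.

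Slc4a1 encodes band 3, the chloride and bicarbonate exchanger of the red cell membrane, which also anchors the membrane skeleton. The probe set 1387656_at had 142.5, 135.4 and 109.9 in PBO-study controls, 71.0, 121.1 and 140.4 at 500 mg/kg, 67.0, 86.8 and 52.2 at 1000 mg/kg, and 7.55, 73.5 and 26.2 at 1500 mg/kg. All animals at 1000 and 1500 mg/kg lay below the controls. Its log2 difference at 1500 mg/kg was -1.70 ± 0.44 (limma, adjusted p = 0.0182). That call was lost when control replicate 1 or 2, or dosed replicate 1, was left out (adjusted p = 0.0627, 0.0559 and 0.05001).

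The second probe set of Slc4a1, 1369634_at, ran in another order over the PBO doses. It had 125.6, 128.8 and 216.5 in controls, 99.3, 13.8 and 18.0 at 500 mg/kg, 64.3, 90.1 and 69.5 at 1000 mg/kg, and 134.8, 115.6 and 60.1 at 1500 mg/kg. Its lowest group was 500 mg/kg, and at 1500 mg/kg 1 animal lay within the control range. The log2 difference was -0.55 ± 0.48 at 1500 mg/kg (limma, adjusted p = 0.474) and -1.78 ± 0.48 at 500 mg/kg (adjusted p = 0.164). The difference at 500 mg/kg passed without replicate 1 of that dose (-2.40, adjusted p = 0.0216). Why the probe sets of this gene differ was not tested. In the DAM study 1387656_at averaged 198 ± 53.5 at 2000 mg/kg and 166 ± 19.8 in controls, and 1369634_at 50.3 ± 13.4 and 74.7 ± 45.1 (SD, n = 3 each). Neither passed the test (adjusted p = 0.550 and 0.652).

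A count of separated groups gives the same data without a model. At 500 mg/kg PBO all dosed animals lay below all controls in 2 of the 5 probe sets, Hbb and 1369634_at, as they did in 11.6% of all probe sets. At 1000 mg/kg this held for all 5 probe sets, beside 15.5% of all probe sets, and at 1500 mg/kg for 4 of 5, beside 19.0%. In the DAM study it held for none of the 5 at 800 mg/kg (10.9% of all probe sets) or at 2000 mg/kg (16.6%).

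With dose as a number, 4 of the 5 probe sets fell over the PBO doses, where 8.84% of all probe sets did. The slopes per 500 mg/kg were -0.58 ± 0.07 for Hbb (limma, adjusted p = 8.85e-05), -0.52 ± 0.07 for Alas2 (0.000194), -0.59 ± 0.12 for Ahsp (0.00374) and -0.56 ± 0.13 for 1387656_at (0.0104). These 4 calls held when each of the 12 arrays was left out in turn. The slope of 1369634_at was -0.08 ± 0.21 (adjusted p = 0.838). At 500 mg/kg alone none of the 5 passed, where 0.478% of all probe sets were called, and 2 of the 5 had an unadjusted p under 0.05. The share of all probe sets with such an unadjusted p was not counted.

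No probe set of the 4 genes passed the test between neighbouring PBO doses. Some neighbouring groups did not overlap, but the share of all probe sets separated in this way was not counted. Against controls, 11.6% to 19.0% of all probe sets had every animal of a PBO dose below every control. Every Hbb signal at 1000 mg/kg lay below every one at 500 mg/kg. Every Alas2 signal at 1500 mg/kg lay below every one at 1000 mg/kg. In each step the other probe sets overlapped. From 500 to 1000 mg/kg the Hbb difference was -0.66 ± 0.23 (limma, adjusted p = 0.844) and none of 5 passed, beside 0.0107% of all probe sets. From 1000 to 1500 mg/kg it was -0.57 ± 0.23 (adjusted p = 0.221) and none of 5 passed, beside 1.2%. In each step 2 of the 5 had an unadjusted p under 0.05, but the share of all probe sets that did was not counted. Without replicate 3 at 1500 mg/kg, Hbb fell by 0.85 in the upper step (adjusted p = 0.0330).

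**Figure D2:**
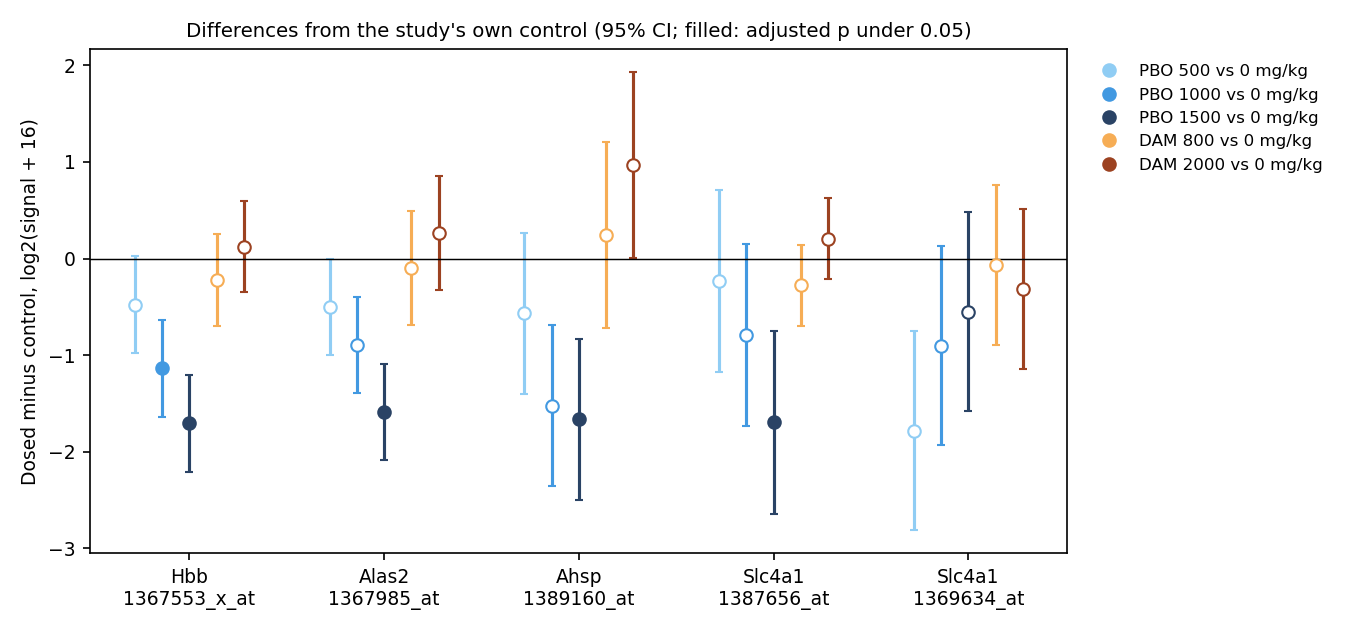
Log2 difference from the study's own undosed animals (vertical axis) for the 5 probe sets (horizontal axis) at each PBO and DAM dose, with the 95% interval of the limma fit. At 1500 mg/kg PBO, 4 of 5 intervals lie below 0, and 1369634_at spans -1.58 to 0.48.

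The DAM doses were also set against each other, and none of the 5 probe sets passed, beside 1.11% of all probe sets. Against controls, the 5 differences at 2000 mg/kg ran from -0.32 to 0.97 with a median of 0.20, and 1 had an unadjusted p under 0.05. At 800 mg/kg they ran from -0.27 to 0.24 and none had an unadjusted p under 0.05. For neither dose was the share of all probe sets with such an unadjusted p counted. The 95% interval of Hbb at 2000 mg/kg was -0.35 to 0.60, which does not reach the Hbb difference at 1500 mg/kg PBO. Between the DAM doses Hbb differed by 0.35 ± 0.22 (limma, adjusted p = 0.568). With arrays left out this ran from 0.13 to 0.69, and it passed only without replicate 2 at 2000 mg/kg (0.69, adjusted p = 0.0233).

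The difference between the effects of the highest doses was tested in 1 fit over both studies, as the PBO effect at 1500 mg/kg minus the DAM effect at 2000 mg/kg. It was called for 4 of the 5 probe sets, all lower, beside 2.77% of all probe sets. The values were -1.83 ± 0.36 for Hbb (limma, adjusted p = 0.00574), -1.86 ± 0.39 for Alas2 (0.00850), -2.63 ± 0.61 for Ahsp (0.0174) and -1.90 ± 0.50 for 1387656_at (0.0324). Hbb and Alas2 kept their call without any 1 of the 12 arrays of these groups, with adjusted p up to 0.0214 and 0.0294. Ahsp lost it without DAM control replicate 3 or DAM 2000 mg/kg replicate 1 or 3 (adjusted p = 0.0519, 0.0509 and 0.0513). The call of 1387656_at was lost without any of 8 arrays, which were PBO control replicates 1 and 2, PBO 1500 mg/kg replicate 1, all 3 DAM controls and DAM 2000 mg/kg replicates 1 and 3 (adjusted p between 0.0525 and 0.0965).

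The undosed rats of the studies differed in part of the set, and this sets where each dose series starts. Undosed Sprague-Dawley livers of the PBO study were higher than undosed Fischer344 livers of the DAM study in 2 of the 5 probe sets, beside 18.2% of all probe sets. Alas2 averaged 711 ± 113 in undosed PBO-study rats and 242 ± 40.3 in undosed DAM-study rats (SD, n = 3 each), a log2 difference of 1.497 ± 0.273 (limma, adjusted p = 0.000292). Ahsp averaged 156 ± 53.3 and 34.6 ± 21.8 in the same groups, a log2 difference of 1.84 ± 0.43 (adjusted p = 0.00280).

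Hbb averaged 21253 ± 735 in undosed PBO-study rats and 14508 ± 2371 in undosed DAM-study rats (log2 difference 0.56 ± 0.25, limma, adjusted p = 0.0956). For Slc4a1 the difference was -0.33 ± 0.35 with 1387656_at (adjusted p = 0.504) and 1.05 ± 0.46 with 1369634_at (0.0904), which passed without DAM control replicate 3 (1.38, adjusted p = 0.0485). Scaling the arrays to equal medians shifted the median of all probe sets by -0.37, which brought Alas2 to 1.12 and Ahsp to 1.52, both still called. Under the same scaling Hbb came to 0.17 (adjusted p = 0.642), 1387656_at to -0.68 (0.118) and 1369634_at to 0.72 (0.200), none of them called. Ordered by mean signal over the 7 groups, Alas2 was highest in PBO-study controls, then at 500 and 1000 mg/kg PBO, then at 2000 mg/kg DAM, DAM controls, 1500 mg/kg PBO and 800 mg/kg DAM. The mean of Alas2 at 1500 mg/kg PBO (227 ± 51.2) lay within the range of the DAM controls, whose signals were 215.4 to 288.0, but 1 of the 3 animals, at 168.8, lay below it.

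Other globin transcripts were read by probe sets whose annotation joins several symbols, so they are given by probe set and not by gene. At 1500 mg/kg PBO the 3 annotated to alpha globins fell, with log2 differences of -1.64 (1370239_at), -1.71 (1370240_x_at) and -1.64 (1388608_x_at). The 2 annotated to beta globins fell too, with -1.78 (1371102_x_at) and -2.06 (1371245_a_at). All 5 were called lower at 1000 mg/kg PBO too, where 1.23% of all probe sets fell, against 9.26% at 1500 mg/kg. None was called at 2000 mg/kg DAM, where 12.3% of all probe sets were called and these 5 ran from 0.10 to 0.42. At 800 mg/kg DAM none was called either, beside 3.79% of all probe sets, and the 3 alpha globin probe sets overlapped with controls. In both beta globin probe sets every animal at 800 mg/kg lay below every control, as in 10.9% of all probe sets. Their means were 77.2% (1371102_x_at) and 70.0% (1371245_a_at) of the control means. Hba-a3, the only other globin with a probe set of its own symbol that passed the filter, had a log2 difference of -1.12 ± 0.55 at 1500 mg/kg PBO (limma, adjusted p = 0.181) and of -1.02 ± 0.31 at 2000 mg/kg DAM (adjusted p = 0.0505).

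One beta globin probe set separated the studies far more than any member. For 1371245_a_at the undosed PBO-study rats had 12604, 14620 and 15214, against 584.0, 961.3 and 543.5 in undosed DAM-study rats. No animal of the DAM study reached the lowest PBO-study signal of 2231, and the log2 difference between undosed groups was 4.36 ± 0.32 (limma, adjusted p = 3.71e-09). The other beta globin probe set, 1371102_x_at, differed by 0.43 ± 0.31 (adjusted p = 0.314). Strain, storage, route and duration cannot be told apart for this difference.

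**Figure D3:**
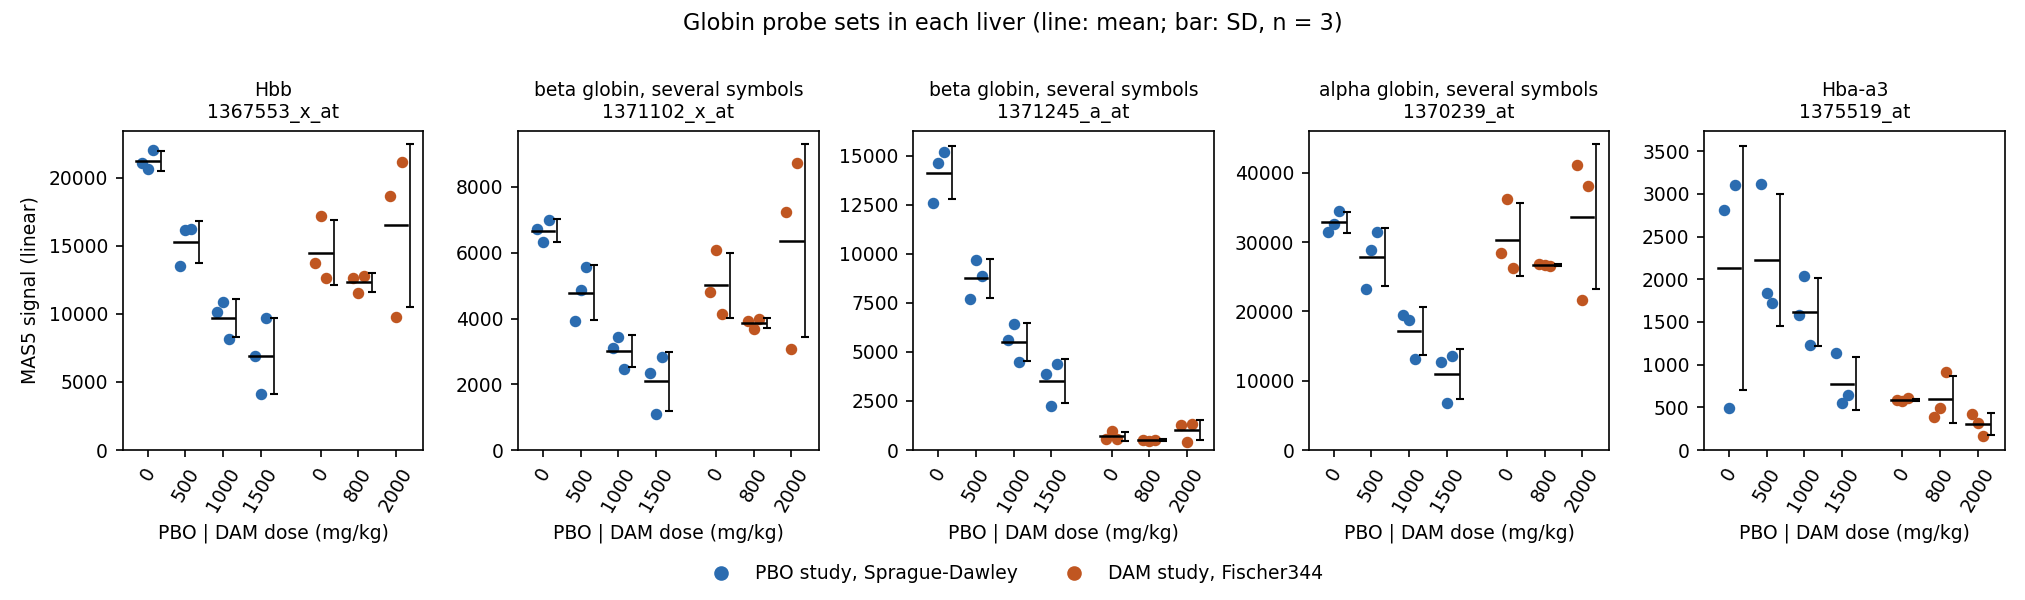
Linear array signal (vertical axes) of the Hbb probe set, both beta globin probe sets and 1 alpha globin probe set with several symbols, and Hba-a3, by dose group in mg/kg. Points are single livers, the line is the mean and the bar the SD (n = 3 per group), and 1371245_a_at lies between 432 and 1347 in the DAM study against 2231 to 15214 in the PBO study.

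Within dose groups, Hbb and Alas2 varied together between animals. Over the 21 livers, their deviations from the dose-group mean correlated with Pearson's r = 0.842 and Spearman's rho = 0.848 (permutation p adjusted over 6 pairs of members = 0.00318 for each). Without the 2 livers farthest from the Hbb median, r was 0.746. Within the PBO study alone r was 0.703 over 12 livers (permutation p adjusted = 0.0537), and within the DAM study 0.974 over 9 livers (permutation p adjusted = 0.057), so neither study passed alone.

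None of the other 5 pairs passed over the 21 livers. Ahsp and Slc4a1 (1387656_at) had r = -0.274 over both studies (permutation p adjusted = 0.363), but -0.710 in the PBO study alone (permutation p adjusted = 0.00966) and 0.492 in the DAM study alone (0.396). Replicate 2 at 2000 mg/kg DAM had the lowest signal of its group in all 4 genes (1387656_at for Slc4a1), and replicate 2 at 1500 mg/kg PBO had the lowest in Hbb, Alas2 and Ahsp but the highest in 1387656_at.

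**Figure D4:**
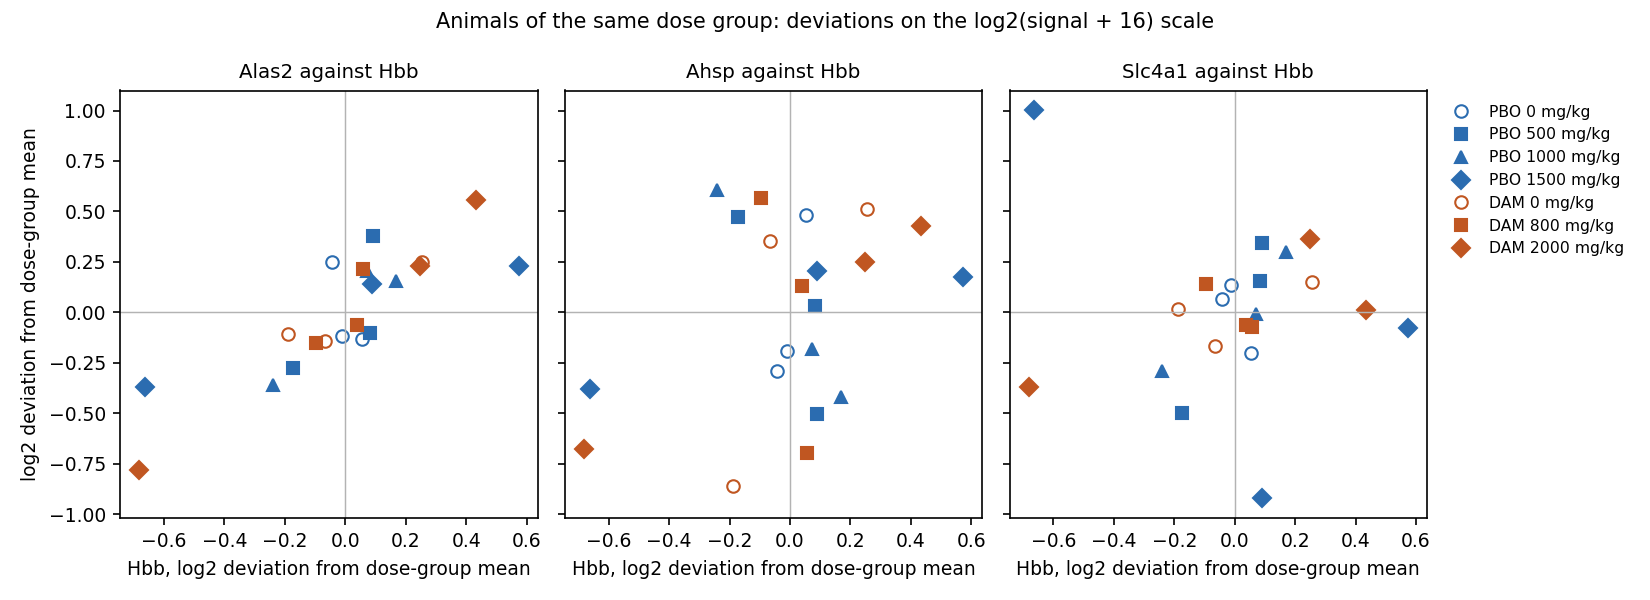
Log2 deviation of each liver from its dose-group mean for Alas2, Ahsp and Slc4a1 (vertical axes) against that of Hbb (horizontal axis), 21 livers coloured by study. Alas2 follows Hbb with r = 0.842, and the other panels show no such relation.

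The wider erythroid programme was examined through lists of genes. Of 12 membrane and skeleton genes on the array, 5 were tested in the PBO study, and at 1500 mg/kg 1 of them fell and none rose, beside 9.26% and 8.08% of all probe sets. Gypc, which encodes glycophorin C, fell by 0.41 ± 0.13 (limma, adjusted p = 0.0456). The list's median difference was 0.30, beside -0.08 over all probe sets. With 2000 mg/kg DAM 8 were tested, with a median of -0.16, and 2 rose, beside 6.22% of all probe sets: Epb41, a protein of the membrane skeleton, by 0.37 ± 0.09 (adjusted p = 0.0139), and the glucose transporter Slc2a1 by 0.69 ± 0.19 (0.0328). Both are also made outside red cells.

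Of 12 erythroid regulators and receptors, 5 passed the filter in the PBO study and none was called at 1500 mg/kg, beside 8.08% of all probe sets higher and 9.26% lower. The master regulators Gata1 and Klf1 did not pass the filter in either study. Epor, the erythropoietin receptor, had 60.6, 36.7 and 78.9 at 1500 mg/kg PBO and 75.7, 156.5 and 78.4 in controls, a log2 difference of -0.66 ± 0.50 (limma, adjusted p = 0.410). At 2000 mg/kg DAM, 1 of 4 tested rose, beside 6.22% of all probe sets. That gene was Nfe2, a factor that drives globin and platelet genes, with 206.6, 266.2 and 490.9 at 2000 mg/kg DAM against 47.1, 44.9 and 37.8 in controls (2.42 ± 0.35, adjusted p = 0.000725). It also rose at 800 mg/kg DAM, with 283.3, 173.2 and 90.4 (1.62 ± 0.35, adjusted p = 0.0228). In the PBO study Nfe2 overlapped between groups (-0.14 ± 0.54, adjusted p = 0.888).

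Red cell enzymes, iron uptake and late maturation genes moved both ways. With 1500 mg/kg PBO, 4 of 9 tested rose and 3 fell, with a median of 0.34, beside 8.08% and 9.26% of all probe sets. The transferrin receptor Tfrc, which brings iron into cells, rose to 9302, 10168 and 12013 at 1500 mg/kg against 3660, 4778 and 2431 in controls (1.58 ± 0.27, limma, adjusted p = 0.00164). Blvrb, a biliverdin reductase, rose by 1.72 ± 0.17, the mitophagy receptor Bnip3l by 0.72 ± 0.12 and the peroxiredoxin Prdx2 by 0.82 ± 0.09. Pklr, the pyruvate kinase of liver and red cells, fell by 2.57 ± 0.46, Bpgm by 0.61 and Xpo7 by 0.61.

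In the DAM study, 5 of 10 genes of this list rose at 2000 mg/kg and 2 fell, with a median of 0.41, beside 6.22% and 6.11% of all probe sets. Tfrc rose by 0.93 ± 0.12 and Blvrb by 1.08 ± 0.12, while Pklr fell by 1.58 ± 0.20 (limma, adjusted p = 0.000351, 7.2e-05 and 0.00031). The same 3 genes were called in the same directions at 800 mg/kg DAM (0.61, 0.79 and -1.32), and all are also expressed by hepatocytes.

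Alas2 was also set beside the haem synthesis genes shared by all tissues. Of these genes, 1 of 7 rose at 1500 mg/kg PBO and none fell, with a median of 0.00, beside 8.08% and 9.26% of all probe sets. The riser was Alas1, the housekeeping counterpart of Alas2, with 12852, 10466 and 19159 at 1500 mg/kg against 4508, 5922 and 1932 in controls (1.88 ± 0.35, limma, adjusted p = 0.00309). Alas2 was lower and Alas1 higher in all 3 dosed livers than in any control. Alas1 rose at the lower DAM dose too, where 1 of the 7 genes was called, beside 3.79% of all probe sets in either direction. It had 21917, 22057 and 20845 at 800 mg/kg DAM against 10955, 15871 and 11118 in controls (0.79 ± 0.13, limma, adjusted p = 0.00473), with every dosed animal above every control. With DAM at 2000 mg/kg, Alas1 differed by 0.26 ± 0.13 (adjusted p = 0.229) and Fech, which inserts iron into haem, rose by 0.22 ± 0.06 (adjusted p = 0.0407).

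Among 8 haem and iron clearance genes tested at 1500 mg/kg PBO, 1 rose and 1 fell, with a median of -0.37. These shares are near the 8.08% and 9.26% of all probe sets that rose and fell. Hmox1, which breaks haem down, rose by 1.97 ± 0.33 (limma, adjusted p = 0.0014), and Hamp, the iron hormone hepcidin, fell by 1.96 ± 0.51 (adjusted p = 0.0200). In livers given 2000 mg/kg DAM, Hamp fell by 1.09 ± 0.25 (adjusted p = 0.0117) and Hmox1 had a difference of -0.02 ± 0.19 (0.968).

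**Figure D5:**
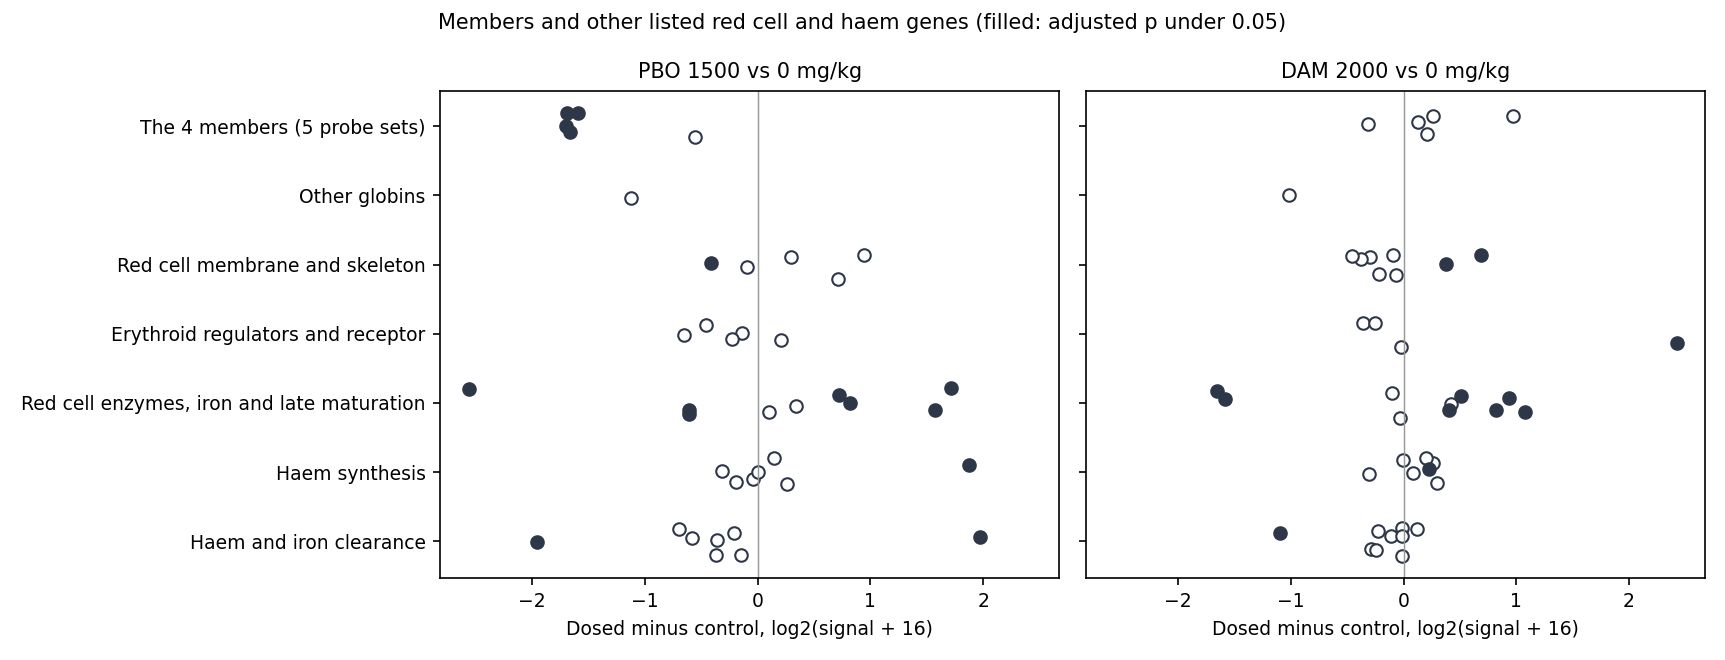
Log2 difference of each tested gene at 1500 mg/kg PBO and at 2000 mg/kg DAM, each against its controls, by gene list; points are genes, filled where limma called them. At 1500 mg/kg PBO 4 of the 5 member probe sets lie between -1.70 and -1.59 and 1369634_at at -0.55, and the list medians are 0.30 for membrane genes, -0.23 for regulators and 0.34 for red cell enzymes and iron.

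Some markers of other cells of the liver and blood fell at 1500 mg/kg PBO as well. Of 9 Kupffer cell and macrophage genes, 3 fell (Clec4f, C1qa and C1qb) and none rose, beside 9.26% and 8.08% of all probe sets, and their summed signal was 10806 to 18708 at 1500 mg/kg against 23031 to 25000 in controls. Of 6 lymphocyte and NK cell genes tested, 3 fell (Gzmb, Gzma and Prf1), beside the same 9.26%, and the sum over the 11 on the array was 681 to 872 against 1170 to 1345 in controls. Of 6 endothelial genes 2 fell (Kdr and Tek), beside 9.26% of all probe sets, with sums of 6939 to 8166 at 1500 mg/kg and 9839 to 10430 in controls. None of 4 platelet genes tested was called, and 1 of 2 neutrophil genes fell (S100a9, beside 9.26%).

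Of 9 hepatocyte genes, 2 fell (Cps1 and Fgb), beside 9.26% of all probe sets, and the summed signal was 284557 to 347831 at 1500 mg/kg PBO and 317522 to 392285 in controls. The ratio of 3' to 5' signal of the actin control probe sets, a sign of RNA quality, was 2.38 to 2.78 at 1500 mg/kg and 2.85 to 3.16 in controls, and 5.56 to 9.81 in the DAM study. The part of these differences in the erythroid values was not tested. The Kupffer sum at 2000 mg/kg DAM was 23979 to 24787 against 22364 to 24613 in controls, but its genes moved both ways. Of the 9 tested, 8 had a negative difference and the median was -0.29. Of these genes, 1 rose and 1 fell, beside 6.22% and 6.11% of all probe sets. Cd14, a co-receptor for bacterial lipopolysaccharide, averaged 9815 ± 1741 at 2000 mg/kg DAM and 5435 ± 1100 in controls (SD, n = 3 each), and rose by 0.86 ± 0.15 (limma, adjusted p = 0.00247). Cd68, a lysosomal protein of macrophages, averaged 530 ± 62.0 at 2000 mg/kg DAM and 919 ± 62.4 in controls, and fell by 0.78 ± 0.11 (limma, adjusted p = 0.000773).

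The genes whose profiles were most like the mean of the 4 members were sought over 13445 probe sets and 21 livers, with study means removed. The highest Pearson's r were those of Pth1r (0.861), C8g (0.855), Spp2 (0.845), Hsd17b10 (0.841) and C9h6orf226 (0.840), followed by Ecm1, Pik3c2g, Mpv17l, H2aj and Apbb3 at 0.834 to 0.824. All 10 were lower at 1500 mg/kg PBO, from -0.42 for Hsd17b10 to -2.91 for Pik3c2g, where 9.26% of all probe sets fell. They were picked by a profile that itself falls over the PBO doses, so this is no separate result. The lowest r were -0.881 for Prdx3, -0.873 for C9h2orf69, -0.863 for Ost4, -0.857 for Slc66a3 and -0.855 for Plekhb2. The 5 globin probe sets with several symbols were closer than any of these, at 0.931 to 0.952, with a profile that includes Hbb itself. Hba-a3 was not close, at 0.235.

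With dose-group means removed, so that only animals given the same dose are compared, the ranking changed. Inpp5k (0.832), Stx5 (0.820), Rabep1 (0.815), Tmem192 (0.795) and Lbr (0.791) led, followed by Rbm8a, Gnb2, Ybx3, Ap2b1 and Cnppd1 at 0.777 to 0.706. None of these 10 was called at 1500 mg/kg PBO, beside 8.08% of all probe sets higher and 9.26% lower. At 2000 mg/kg DAM 2 were higher, beside 6.22% of all probe sets, Tmem192 by 0.43 (limma, adjusted p = 0.0272) and Ybx3 by 0.38 (0.0394). The globin probe sets with several symbols stood at 0.733 to 0.865, and Hba-a3 at -0.174. These values describe likeness over the same 21 arrays, which share labelling and scaling.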

How the data were processed

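Liver RNA of 21 rats was hybridised to 1-colour Affymetrix arrays. The deposited values are linear intensity per probe set. The submitters' processing notes name MAS5, with its version not given in the sources used here. Groups, doses and replicate numbers came from the labels, which call the replicates biological. Symbols came from the platform annotation: of 31099 probe sets, 57 are controls, 20826 had 1 symbol, 436 several and 9780 none. The members and lists were chosen with earlier results of these data known.

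The deposited signals were used on the log2(signal + 16) scale and not normalized again. Control probe sets and those under the 40th percentile of mean log2 signal were left out. Each study was fitted alone with limma 3.58.1 (lmFit, eBayes with intensity trend) in R 4.3.3, and both together for the difference of effects and the undosed groups. P-values were adjusted by Benjamini-Hochberg over 18625 probe sets. A gene of a list was read by its brightest tested probe set. The named genes were the members, up to 4 genes of each list with the smallest adjusted p, fixed haem and globin genes, and the 10 most and 5 least alike; other genes given to complete a count of calls were chosen after their values were seen. Correlations used 100000 permutations within dose groups, two-sided. Shared replicate numbers did not pair samples, since no correlation of deviations between same-numbered arrays exceeded 0.1. The fits were tested on simulated data. Figures were drawn with matplotlib 3.10.9 in Python 3.11.15. Alternatives were other pseudocounts, filters and scalings, no intensity trend, array weights, a replicate block, and each array left out. Arrays give no count-based depth, and 3 per group limit the precision.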

Additional observations from a re-analysis of the deposited data

Results flagged for a closer look

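The effects of the highest doses differed between the studies in 4 of the 5 probe sets, by a test of the difference itself (limma over all 21 arrays, PBO effect at 1500 mg/kg minus DAM effect at 2000 mg/kg, n = 3 per group). The difference was -1.83 for Hbb, -1.86 for Alas2, -2.63 for Ahsp and -1.90 for Slc4a1 (1387656_at) on the log2 scale. Compound, dose, strain, route, duration and storage differ between the studies and cannot be told apart. No group held 4 or more animals, so no single animal was tested as an outlier.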

How the results depend on the processing

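Of 5 member probe sets, the 4 calls at 1500 mg/kg PBO, the 4 of the trend and the 4 of the difference of effects held under other pseudocounts, scalings, array weights, no trend and the replicate block, except that 1387656_at missed in the difference without a filter (adjusted p = 0.0545) and at 1500 mg/kg with only the arrays of both groups (0.0776). The size of low-signal differences moved with the pseudocount: with 1 and with 64, Ahsp was -3.39 and -1.64 in the difference of effects and -2.02 and -1.09 at 1500 mg/kg PBO, and 1387656_at was -2.54 and -1.17, and -2.32 and -1.004. Their slopes were -0.73 and -0.39 (Ahsp), and -0.76 and -0.34, and the undosed difference of Ahsp was 2.38 and 1.16. The 60th percentile filter, under which Ahsp and Slc4a1 were not tested in the PBO study, gave 2 calls in each of these, 2 at 1000 mg/kg PBO and 1 in the undosed comparison. With arrays left out, calls ran from 3 to 4 at 1500 mg/kg and from 2 to 4 in the difference. At 1000 mg/kg PBO the 1 call became 3 with pseudocount 64, array weights or only both groups, 0 without the trend, and 0 to 3 with arrays left out. At 500 mg/kg PBO it was 1 with only both groups and 0 to 1 with arrays left out; the steps from 1000 to 1500 mg/kg PBO and from 800 to 2000 mg/kg DAM, and 2000 mg/kg DAM against controls, also ran from 0 to 1. With the replicate block, calls stayed at 4, 1 and 4 at 1500 mg/kg, 1000 mg/kg and in the trend; the block changed no other member call. In the correlations, the DAM study alone gave 0 calls.

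Signs turned in differences and correlations that were not called over all arrays. With arrays left out, 1387656_at ran from -0.40 to 0.0186 at 500 mg/kg PBO, the slope of 1369634_at from -0.18 to 0.0733, and Ahsp from -0.35 to 0.16 in the step to 1500 mg/kg (0.05 without 1500 mg/kg replicate 2). At 2000 mg/kg DAM, Hbb ran from -0.0922 to 0.47, Alas2 from -0.0122 to 0.66 and 1369634_at from -0.81 to 0.0168. At 800 mg/kg DAM, Alas2 ran from -0.21 to 0.0254, Ahsp from -0.19 to 0.59 and 1369634_at from -0.56 to 0.27. The difference of effects of 1369634_at ran from -0.57 to 0.26, and was 0.10 with array weights. Correlations turned for Hbb and Slc4a1 (0.0202 with pseudocount 64, 0.0036 with median scaling, 0.695 in the DAM study), Alas2 and Ahsp (-0.504 in the PBO study), Alas2 and Slc4a1 (-0.067 in the PBO study, -0.251 with the other probe set, chosen after seeing the data) and Ahsp and Slc4a1 (0.492 in the DAM study, 0.094 with the other probe set). The cause was not tested. Median scaling moved the share of higher calls to 63.0% against 46.6% at 1500 mg/kg PBO, 80.5% against 60.4% at 1000, 84.1% against 73.0% at 500, 65.7% against 47.2% in the trend, 73.9% against 50.4% and 73.3% against 57.2% at 2000 and 800 mg/kg DAM, and 19.3% against 55.1% undosed. Counts over all probe sets moved by over 1.5 times in places. At 1500 mg/kg PBO they were 3228, 1550 with only both groups, and 2032 and 2134 without control replicates 3 and 1. At 1000 mg/kg they were 581, 300 without the trend, 1443 with array weights, 1370 with only both groups, 255 to 329 without any 1 control or animal of that dose, and 1448 without replicate 3 at 1500 mg/kg. At 500 mg/kg they were 89, with 45 to 348 under other settings and 52 to 371 with arrays left out. The step from 500 to 1000 mg/kg gave 2 (2 to 5 and 0 to 10), that to 1500 mg/kg 224 (0 to 418 and 13 to 924), and the difference of effects 914 (502 to 1425 with arrays left out). At 2000 mg/kg DAM they were 2296, 1501 without the trend and 1492 without replicate 2 of that dose, at 800 mg/kg 705 (235 without the trend, 382 to 575 with arrays left out), and between these doses 207 (60 and 121 to 198).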
